A study of Mus musculus with 8 samples.

Results

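Growth factors that endothelial cells (ECs) can release to their neighbours, here called angiocrine growth factors, were followed in lung ECs of mouse pups raised in room air or in high oxygen. The group consisted of 10 genes taken by name from the 54532 genes in the deposited count table: the platelet-derived growth factor (PDGF) ligands Pdgfa, Pdgfb, Pdgfc and Pdgfd, the epidermal growth factor (EGF) family ligands Hbegf and Areg, and Kitl, Csf1, Hgf and Rspo3. The study exposed wild-type (WT) C57BL/6J pups to hyperoxia (80% O2) from birth to postnatal day 14, which impairs the formation of alveoli and vessels, and kept control pups in normoxia (21% O2). Each condition had 4 bulk RNA-seq libraries made from lung cells at day 14. The labels give WT as the genotype of both groups and name no transgene or drug. Cells were depleted of CD45-positive leukocytes and then collected on beads against CD31, so the isolates were enriched for ECs but could hold other lung cells. The labels did not say whether a library came from 1 pup or from pooled pups, so p-values measure only the spread between these libraries.

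Growth factors of this kind are secreted, or cut from the cell surface, and act on receptors of nearby cells. PDGF-B from ECs recruits pericytes through PDGFRB, while PDGF-A acts through PDGFRA on the myofibroblast precursors that help to build alveolar walls. HB-EGF and amphiregulin (Areg) bind receptors of the EGF family, KIT ligand binds KIT, CSF1 sustains macrophages through CSF1R, HGF acts on epithelial cells through MET, and R-spondin 3 strengthens Wnt signalling.

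Libraries held 16098086 to 18300730 counts. The summed level of 10 EC markers was 15945 to 16868 CPM in normoxia and 15501 to 16332 CPM in hyperoxia, where CPM is the count scaled to a common library total after TMM normalization. Markers of other lung cells were present as well. Summed alveolar type 2 (AT2) markers were 292 to 433 CPM in normoxia and 878 to 2630 CPM in hyperoxia. Hyperoxia 3 differed from its group in these markers (878 CPM, the rest 2266 to 2630 CPM) and on the first principal component of all genes (20.3 against 40.2 to 42.9, with normoxia at -43.6 to -28.5).

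Levels of different genes were compared as FPKM, which corrects for gene length. In normoxia Kitl was the most abundant of the 10 genes at 117 ± 7.35 FPKM (mean ± SD, n = 4 here and below), followed by Pdgfb at 104 ± 9.84 FPKM. The ranges of these 2 genes overlapped, at 108 to 126 FPKM for Kitl and 94.3 to 117 FPKM for Pdgfb. Hbegf followed at 35.8 ± 4.97 FPKM, then Pdgfd at 23.3 ± 0.886 FPKM and Csf1 at 11 ± 0.361 FPKM. The place of Hbegf depends on its gene length, which is 2373 bases in the deposited tables and 4834 bases as merged exons of GENCODE M21. With the longer length Hbegf was 17.6 ± 2.44 FPKM in normoxia (14.4 to 20 FPKM), below Pdgfd (22.4 to 24.3 FPKM). Hgf (3.79 ± 0.468 FPKM) and Pdgfa (2.71 ± 0.254 FPKM) were low, and from Kitl down to Pdgfa every neighbour after the first pair had separate ranges. Rspo3 (0.276 ± 0.0453 FPKM), Areg (0.175 ± 0.164 FPKM) and Pdgfc (0.0971 ± 0.0333 FPKM) had few counts, and each overlapped its neighbour in the order.

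In hyperoxia the order began in the same way, with Kitl at 166 ± 9.73 FPKM and Pdgfb at 130.4 ± 5.11 FPKM, and the ranges of both genes no longer overlapped. Pdgfd followed Pdgfb at 31.3 ± 0.705 FPKM and Hbegf came next at 13.2 ± 0.671 FPKM by the deposited length, where the range of Hbegf (12.3 to 13.7 FPKM) lay within that of Csf1 (8.27 to 15.8 FPKM). Hbegf and Pdgfd thus changed places by the deposited length only. With the longer length Hbegf was 6.47 ± 0.329 FPKM in hyperoxia (6.04 to 6.74 FPKM), below Pdgfd in both conditions and below Csf1 in hyperoxia. Hgf and Pdgfa changed places, with Pdgfa at 5.27 ± 0.788 FPKM above Hgf at 2.02 ± 0.307 FPKM. Areg at 0.866 ± 0.327 FPKM stood above Rspo3 at 0.313 ± 0.0999 FPKM and Pdgfc at 0.21 ± 0.0584 FPKM, although neighbouring ranges overlapped among these 3 genes.

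**Figure D1:**
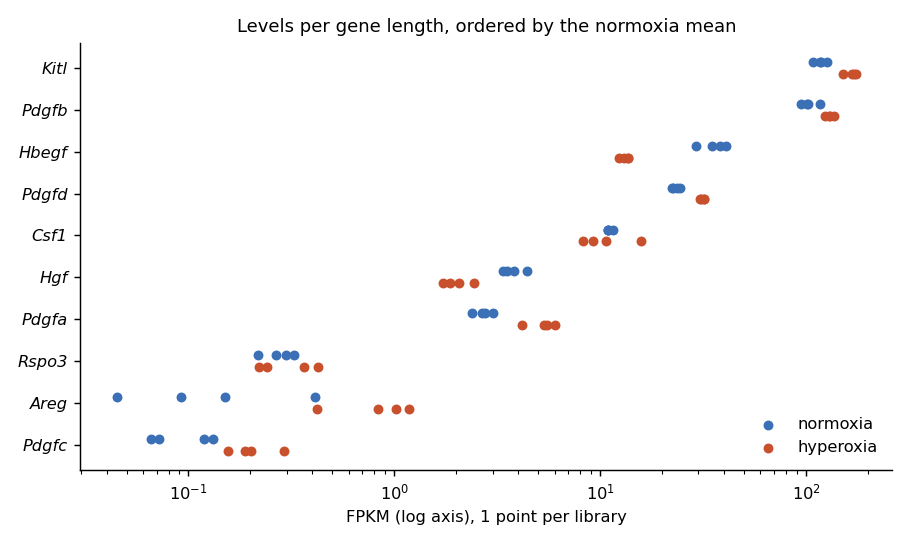
FPKM of the 10 genes on a log axis, with 1 point per library, blue for normoxia and red for hyperoxia, and genes ordered by their normoxia mean. Kitl and Pdgfb lie near or above 100 FPKM in both conditions, Hbegf and Hgf lie further left in hyperoxia, and Pdgfc, Areg and Rspo3 lie near or below 1 FPKM.

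The 250 bases before the transcription start were read from RefSeq (GRCm38.p6) for 7 of the 10 genes. They are printed for 4 of these: Kitl, Pdgfd and Areg, which were higher in hyperoxia, and Hgf, which was lower. Sequences run 5′ to 3′ on the strand of the gene, and capitals mark every match to a searched motif on either strand.
Kitl, chr10:100015571-100015820 (+ strand): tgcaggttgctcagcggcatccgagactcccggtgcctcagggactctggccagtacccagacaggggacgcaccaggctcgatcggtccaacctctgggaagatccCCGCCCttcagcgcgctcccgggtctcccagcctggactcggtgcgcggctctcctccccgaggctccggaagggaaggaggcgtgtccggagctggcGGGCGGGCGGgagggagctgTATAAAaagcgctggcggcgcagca
Pdgfd, chr9:6168236-6168485 (+ strand): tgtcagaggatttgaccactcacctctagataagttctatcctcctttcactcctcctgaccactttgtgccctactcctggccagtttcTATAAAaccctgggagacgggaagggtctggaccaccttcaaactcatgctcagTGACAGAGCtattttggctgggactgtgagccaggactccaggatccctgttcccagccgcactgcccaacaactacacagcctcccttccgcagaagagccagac
Areg, chr5:91139349-91139598 (+ strand): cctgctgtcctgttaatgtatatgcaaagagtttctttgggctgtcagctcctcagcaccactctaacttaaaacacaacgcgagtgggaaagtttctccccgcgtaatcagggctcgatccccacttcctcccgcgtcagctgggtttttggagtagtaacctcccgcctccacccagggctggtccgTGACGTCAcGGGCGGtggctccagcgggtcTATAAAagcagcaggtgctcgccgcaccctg
Hgf, chr5:16553245-16553494 (+ strand): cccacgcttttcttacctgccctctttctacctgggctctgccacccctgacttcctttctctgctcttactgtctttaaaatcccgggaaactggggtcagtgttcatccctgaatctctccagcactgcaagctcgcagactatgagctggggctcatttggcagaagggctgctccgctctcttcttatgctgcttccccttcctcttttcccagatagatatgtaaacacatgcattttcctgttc
Kitl, the most abundant gene, had the letters TATAAA 25 bases before its start. It had the GC box GGGCGG 45 and 41 bases before the start, 2 matches that share 2 bases, and its reverse complement 143 bases before. Areg had the cAMP response element TGACGTCA, which reads the same on both strands, 61 bases before its start, GGGCGG at 52 and TATAAA at 31. Pdgfd had TATAAA at 160 and the core of an antioxidant response element, TGACNNNGC, at 106 bases before the start. The Hgf sequence printed held no match, nor did the sequence before a second Hgf start. Of the genes not printed, Pdgfc had TGACNNNGC at 170 bases before its start, Csf1 had GGGCGG at 51 and 41, and Pdgfa had TGACNNNGC at 84 and GGGCGG at 60 before 1 start and GC boxes at 93 and 86 before the other. No match to the AP-1 site TGANTCA or to the hypoxia response core ACGTG was found in any of these sequences. All motifs were searched on both strands, and matches of different motifs could overlap. Among 32851 RefSeq promoters of this length, 12.4% held TATAAA, 1.55% TGACGTCA, 6.75% TGANTCA, 10.2% TGACNNNGC, 32.7% GGGCGG and 16.6% ACGTG. GC content was 69.2% for Kitl, 57.2% for Areg, 53.6% for Pdgfd and 50.8% for the Hgf sequence shown, against a median of 52.4% over all promoters. Starts here are those of RefSeq and can differ from the bounds of the counted genes. The counted Kitl gene begins at chr10:100015630, so all Kitl matches lie inside it. The sequences before both Pdgfa starts and before the second Hgf start also lie inside the counted genes. The Pdgfd start lies before the counted Pdgfd gene. All matches describe the letters only.

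Hyperoxia and normoxia were compared with the quasi-likelihood test of edgeR over all 15564 genes that passed a filter on low counts, and a gene was called at a Benjamini-Hochberg adjusted p under 0.05. Of the 10 growth factor genes, 9 passed the filter and Areg did not. Pdgfa, Pdgfb, Pdgfc, Pdgfd and Kitl rose (5 of 9), where 18.5% of all tested genes rose. Hbegf and Hgf fell (2 of 9), where 17.1% of all tested genes fell. In either direction 7 of 9 were called, beside 35.6% of all tested genes. The 10 genes were chosen with earlier results of these data known, so shares among them are a description. Csf1 and Rspo3 did not pass the test. Pdgfc and Hbegf also had a log2 fold change of 1 or more in size, as did 6.98% of all tested genes. The study asked for the same fold change, but with a DESeq2 p-value under 0.05 that it does not call adjusted. The 2 groups of libraries did not overlap for 7 of the 9 genes, beside 35.4% of all tested genes, nor for Areg. Pdgfc reached the filter's level in every hyperoxia library but only in normoxia 2 and normoxia 4. It would not have passed the filter on normoxia libraries alone. The median log2 fold change of the 9 genes was 0.33, and the median over all tested genes was 0.00 after rounding. The median absolute log2 fold change was 0.50 for the 9 genes and 0.23 for all tested genes.

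**Figure D2:**
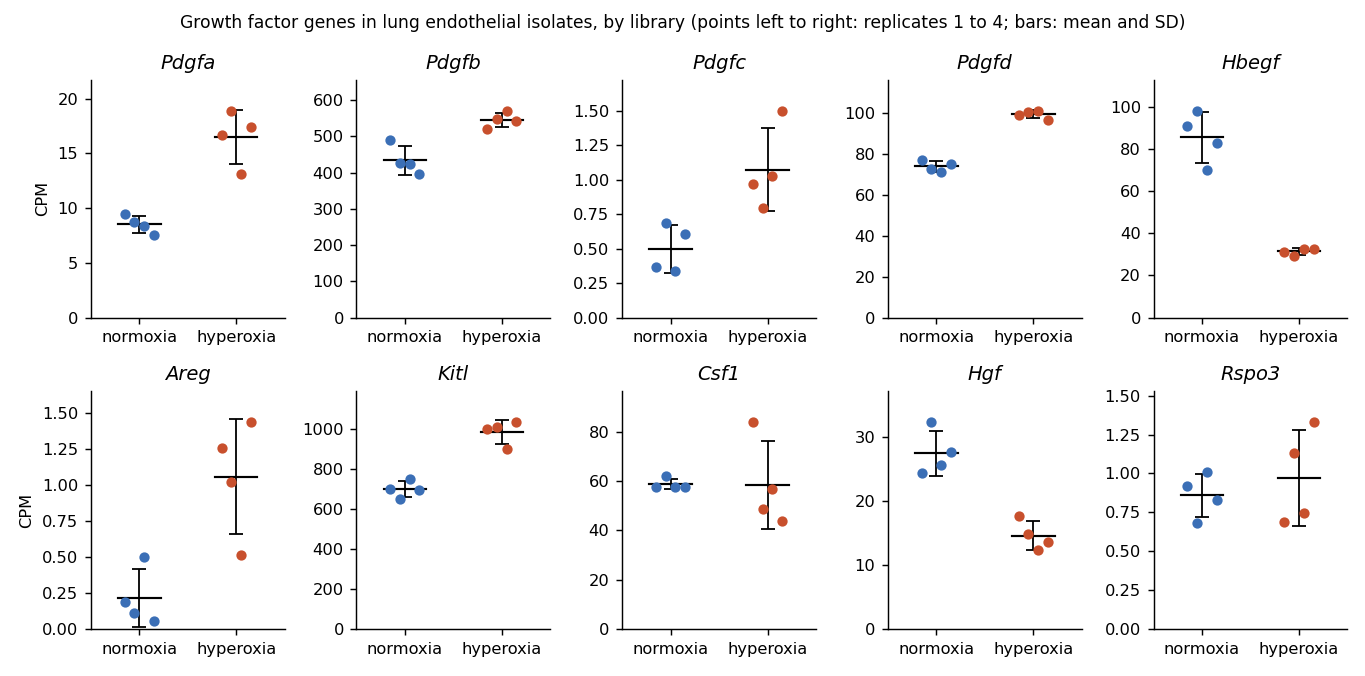
CPM of each of the 10 genes, with 1 panel per gene on its own linear axis from 0, points for replicates 1 to 4 from left to right, and bars for the mean and SD (n = 4). Points of the 2 conditions are separate for 8 genes and overlap for Csf1 and Rspo3.

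All 4 PDGF ligands were higher in hyperoxia. Pdgfb (chr15:79995874-80014977, mm10), the ligand by which ECs recruit pericytes, gave 491, 426, 425 and 395 CPM in normoxia 1 to 4 and 522, 548, 571 and 542 CPM in hyperoxia 1 to 4. The highest normoxia library lay below the lowest hyperoxia library. Pdgfb rose 1.26-fold, or by 0.33 on the log2 scale (SE 0.0649, adjusted p = 0.00262, edgeR). Pdgfd (chr9:6168584-6378850), which encodes a ligand of PDGFRB that must be cut to become active, gave 77.1, 72.4, 71.2 and 75.2 CPM in normoxia and 98.7, 100.4, 101 and 96.7 CPM in hyperoxia. Libraries within each group were close together, and the gap between the groups was wider than either range. Pdgfd rose 1.34-fold (log2 fold change 0.42, SE 0.0432, adjusted p = 3.65e-05).

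Pdgfa (chr5:138976014-138997370), the ligand of PDGFRA, was scarcer in both groups. It gave 9.43, 8.71, 8.39 and 7.51 CPM in normoxia and 16.7, 18.9, 13.1 and 17.4 CPM in hyperoxia, where hyperoxia 3 was the lowest. Even this library lay above all normoxia libraries. Pdgfa rose 1.94-fold (log2 fold change 0.96, SE 0.125, adjusted p = 0.000201), and the log2 fold change was 1.05 without hyperoxia 3 and 0.95 without hyperoxia 1. In the GENCODE M21 annotation, 26.1% of Pdgfa exon bases overlap the opposite-strand gene 6330403L08Rik, and whether the counting used strand was not stated. That gene gave 3.69 ± 1.28 CPM in normoxia and 4.01 ± 0.657 CPM in hyperoxia (log2 fold change 0.12, adjusted p = 0.74).

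Pdgfc (chr3:81036416-81214040), the second ligand of this family that requires proteolytic activation, was counted 6, 12, 6 and 11 times in normoxia and 17, 14, 18 and 27 times in hyperoxia. This is 0.336 to 0.683 CPM against 0.793 to 1.5 CPM, so the groups were separate but the counts were few. Pdgfc rose by 1.09 on the log2 scale (SE 0.334, adjusted p = 0.0259). The call was lost with DESeq2 (adjusted p = 0.0512) and without normoxia 1 (0.0668), normoxia 3 (0.0684) or hyperoxia 4 (0.0865).

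The summed FPKM of the 4 PDGF ligands was 129.6 ± 10.6 in normoxia and 167 ± 5.21 in hyperoxia, ranging from 120.5 to 145 and from 161 to 173. Pdgfb supplied most of this sum, 79.8 ± 1.17% in normoxia and 78 ± 0.74% in hyperoxia, and these ranges overlapped. Pdgfd supplied 18 ± 1.19% and 18.7 ± 0.398%, also with overlap. The Pdgfa share was 2.09 ± 0.0794% in normoxia and 3.16 ± 0.51% in hyperoxia, and its ranges of 1.99 to 2.18% and 2.41 to 3.56% were separate. Pdgfc supplied 0.0761 ± 0.0295% and 0.126 ± 0.036%, with overlap. Pdgfb was the main PDGF transcript in every library, and the larger share of Pdgfa was the one change in makeup that separated the groups.

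The EGF family ligands differed in level and in direction. Hbegf on chromosome 18, whose membrane-bound precursor is shed as a soluble ligand of EGFR and ERBB4, had the largest fall of the 9 tested growth factor genes. Its levels were 91.0, 98.3, 70.0 and 83.2 CPM in normoxia and 31.1, 29.3, 32.7 and 32.7 CPM in hyperoxia. All hyperoxia libraries lay within a narrow band, and the lowest normoxia library lay far above it. Hbegf was 2.73-fold lower in hyperoxia (log2 fold change -1.45, SE 0.0954, adjusted p = 1.88e-06), and its log2 fold change lay at the 0.411 percentile of all tested genes. In bulk libraries such as these, fewer cells that transcribe a gene and less RNA per cell cannot be told apart.

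Areg (chr5:91139599-91148432), another ligand of EGFR, was barely detected. It had 3, 2, 9 and 1 counts in normoxia and 22, 18, 9 and 26 counts in hyperoxia. In CPM these were 0.184, 0.114, 0.503 and 0.0552 against 1.26, 1.02, 0.515 and 1.44, so the groups were separate only by the small gap between normoxia 3 and hyperoxia 3. The mean was 4.94-fold higher in hyperoxia. In the edgeR fit without the filter on low counts, the log2 fold change was 2.28 (SE 0.518, adjusted p = 0.00244), and an exact two-sided permutation test on CPM gave p = 0.0286, the smallest that 4 against 4 libraries allow. In the same fit without a filter, leaving out normoxia 3 gave 3.13 (adjusted p = 0.000351) and leaving out hyperoxia 3 gave 2.50 (adjusted p = 0.000485). No normoxia library had the 10 counts that the filter asks for, so a filtered fit could admit Areg only through the libraries where it was higher.

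Kitl (chr10:100015630-100100416) encodes the ligand of the receptor tyrosine kinase KIT. Its levels were 702, 649, 751 and 697 CPM in normoxia and 1001, 1011, 900.3 and 1035 CPM in hyperoxia, where hyperoxia 3 was again the lowest. The groups were separate. Kitl rose 1.41-fold (log2 fold change 0.50, SE 0.0594, adjusted p = 0.00011), and without hyperoxia 3 the log2 fold change was 0.54. Its receptor Kit, which the study used as a marker of general capillary ECs, moved the other way: 879.5, 1035, 838 and 1004 CPM in normoxia and 411, 357, 453 and 317 CPM in hyperoxia. Every hyperoxia library was below every normoxia library, and Kit fell by 1.29 on the log2 scale (SE 0.109, adjusted p = 9.66e-06).

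Csf1 (chr3:107741048-107760469), which encodes a macrophage growth factor, had nearly equal means of 58.8 ± 2.16 CPM in normoxia and 58.4 ± 17.9 CPM in hyperoxia. The normoxia libraries gave 57.8, 62.1, 57.7 and 57.7 CPM, and the hyperoxia libraries 84.0, 48.8, 56.8 and 44.0 CPM. Hyperoxia 1 was thus above all normoxia libraries and the other hyperoxia libraries below them. The log2 fold change was -0.01 (SE 0.164, adjusted p = 0.967), with a 95% interval from -0.41 to 0.39. Without hyperoxia 1 it was -0.24 and passed the test (adjusted p = 0.0494), so the result for Csf1 rested on that library. Hyperoxia 1 also had the highest summed neutrophil markers, 89.5 CPM where hyperoxia 2 to 4 held 16.8 to 23.4 CPM, and their part in the Csf1 value was not tested. None of the 5 neutrophil markers that could be tested was called between the groups. The CSF1 receptor gene Csf1r, itself a macrophage marker, gave 40.2 ± 18.3 CPM in normoxia and 36.1 ± 11.5 CPM in hyperoxia (adjusted p = 0.726).

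Hgf (chr5:16553495-16620152), whose product acts on the receptor MET of epithelial cells, gave 24.3, 32.3, 25.6 and 27.6 CPM in normoxia and 17.6, 14.8, 12.4 and 13.5 CPM in hyperoxia. The groups were separate. Hgf fell, with a level 1.88-fold lower in hyperoxia (log2 fold change -0.91, SE 0.121, adjusted p = 0.000221). Without hyperoxia 3, the lowest hyperoxia library, the log2 fold change was -0.84 (adjusted p = 0.000457). Hyperoxia 1, with the highest Hgf level of its group, was the library whose omission gave the largest fall (log2 fold change -1.01).

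Rspo3 (chr10:29452416-29535867), which encodes a secreted enhancer of Wnt signalling, had few counts. It was counted 15, 12, 18 and 15 times in normoxia and 12, 20, 13 and 24 times in hyperoxia, which is 0.683 to 1.01 CPM against 0.685 to 1.33 CPM. Both groups began at nearly the same level and overlapped. The log2 fold change of 0.18 (SE 0.294, adjusted p = 0.67) had a 95% interval from -0.54 to 0.90, which holds changes in either direction.

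**Figure D3:**
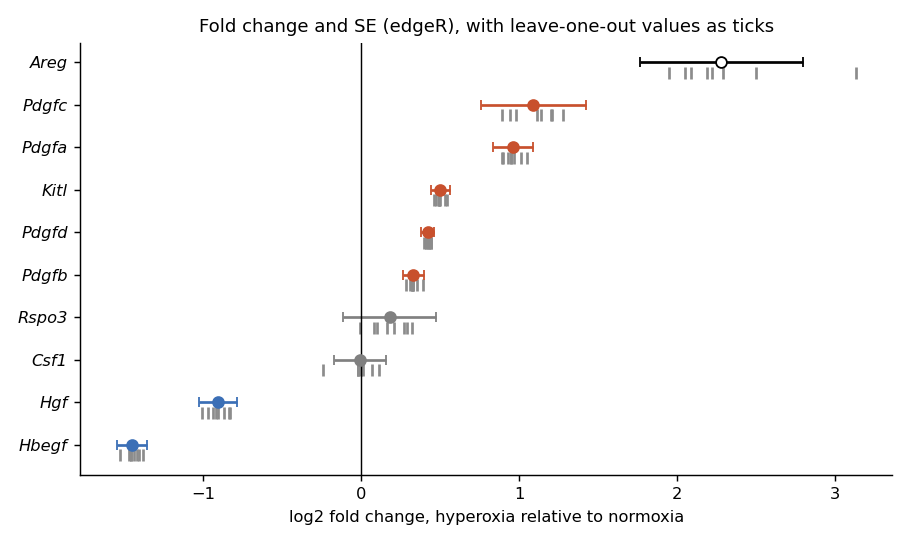
Log2 fold change of hyperoxia relative to normoxia for the 10 genes from edgeR, with bars for the SE, red for genes that rose, blue for genes that fell and grey for genes not past the test. The open point is Areg in the fit without a filter, and the grey ticks are the values after leaving out 1 library, which cross 0 only for Csf1 and Rspo3.

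Genes of the same pathways, 44 in all, comprised 16 receptors, 14 other ligands and 14 genes for activation, shedding or its inhibition. Of these, 33 passed the filter, 18 rose, 3 fell and 12 did not pass the test, where 18.5% of all tested genes rose and 17.1% fell. The pathway lists were chosen with earlier results of these data known, so these shares are a description too. Egfr, Erbb3, Nrg1 and Spint1 among those that rose reached the filter's level in every hyperoxia library but not in every normoxia library. Rnf43 also rose. It had 12, 5, 5 and 7 counts in normoxia 1 to 4 and 25, 21, 5 and 33 in hyperoxia 1 to 4. It reached the filter's level only in normoxia 1 and in hyperoxia 1, 2 and 4. All these genes would not have passed the filter on the normoxia libraries alone. Of the 25 genes above the filter's level in all 8 libraries, 13 rose and 3 fell. Among 13 tested receptors, Pdgfrb, Egfr, Erbb3, Lgr4 and Rnf43 rose, and Kit and Erbb2 fell. Egfr, a receptor of HB-EGF and amphiregulin, was 0.506 ± 0.231 CPM in normoxia and 2.70 ± 1.05 CPM in hyperoxia (log2 fold change 2.41, adjusted p = 0.00118). Erbb3 rose by 2.14 on the log2 scale from 0.9 ± 0.41 CPM, and Erbb2 fell by 0.41 from 43.1 ± 4.66 CPM (adjusted p = 0.00566 and 0.00243). Hyperoxia 3 was the lowest hyperoxia library for Egfr (1.14 CPM against 3.0 to 3.48 CPM) and Erbb3 (1.09 CPM against 4.22 to 5.49 CPM). For Erbb3 it lay within the normoxia range of 0.442 to 1.31 CPM, so the groups overlapped.

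Pdgfrb, the receptor of PDGF-B and a mural cell marker, was 9.72 ± 4.35 CPM in normoxia and 19.9 ± 8.68 CPM in hyperoxia (log2 fold change 1.04, adjusted p = 0.0386). Its call was lost in 6 of 8 fits that left out a library, each except those without normoxia 1 and without hyperoxia 3, and so was the call of Rnf43. Pdgfra (log2 fold change 0.62, adjusted p = 0.0862), Pdgfrl, Csf1r, Met (0.62, adjusted p = 0.0815), Mst1r and Znrf3 did not pass the test, while Erbb4, Lgr5 and Lgr6 did not pass the filter. Lgr4, a receptor of R-spondins, rose by 0.45 on the log2 scale from 5.95 ± 0.238 CPM (adjusted p = 0.00728).

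Of the 14 genes for activation, shedding or its inhibition, 11 rose and 1, Adam17, fell, beside the same 18.5% and 17.1% of all tested genes. This list was likewise chosen with earlier results of these data known. The inhibitor genes Spint1 and Spint2 are among those that rose. Without Spint1, which did not reach the filter's level in every normoxia library, 10 of 13 rose. Plau, whose product urokinase activates PDGF-D, was 10.4 ± 1.03 CPM in normoxia and 28.9 ± 3.90 CPM in hyperoxia, a rise of 1.48 on the log2 scale (adjusted p = 4.64e-06). Plat, whose product activates PDGF-C, had 147 ± 20.2 CPM in normoxia and 270.4 ± 44.2 CPM in hyperoxia, a rise of 0.88 (adjusted p = 0.000335). The proprotein convertase gene Furin, whose product cleaves the PDGF-A and PDGF-B precursors, rose by 0.41 on the log2 scale from 135 ± 3.69 CPM (adjusted p = 4.57e-05), and Pcsk6 of the same protease family rose by 1.08. Pcsk5, a further protease gene of this family at 235 ± 36.9 CPM in normoxia, did not pass the test (log2 fold change -0.16, adjusted p = 0.207).

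The metalloprotease gene Adam12, whose product can shed HB-EGF, gave 63.1, 55.1, 67.2 and 61.1 CPM in normoxia and 145, 147, 141 and 151 CPM in hyperoxia. It rose by 1.24 on the log2 scale (SE 0.0599, adjusted p = 2.36e-07). Adam17, which encodes the main sheddase of amphiregulin, fell by 0.19 (adjusted p = 0.0126). Rhbdf2, which encodes a partner that brings ADAM17 to the cell surface, rose by 0.81 from 104 ± 7.68 to 182 ± 8.43 CPM (adjusted p = 3.84e-06), while the calls of Adam10 (0.20) and Rhbdf1 (0.26) were smaller and that of Rhbdf1 was lost without normoxia 4, hyperoxia 2 or hyperoxia 4. Spint1 and Spint2, which encode inhibitors of the proteases that activate HGF, rose by 2.72 and 1.78 on the log2 scale, with hyperoxia 3 the lowest hyperoxia library for both (1.66 CPM against 3.51 to 5.25 CPM for Spint1, and 11.9 CPM against 17.7 to 20.9 CPM for Spint2). St14, the gene of a protease that activates HGF, rose by 0.91.

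Of the other ligands, 6 of 14 passed the filter. Nrg1, a ligand of ERBB3 and ERBB4, was 0.857, 1.31, 1.29 and 0.552 CPM in normoxia and 4.34, 5.15, 5.5 and 5.16 CPM in hyperoxia. It rose by 2.32 on the log2 scale (SE 0.245, adjusted p = 4.59e-05), and hyperoxia 3 was here the highest library. Tgfa, a further ligand of EGFR, rose by 0.66 on the log2 scale, with 3.07 ± 0.465 CPM in normoxia and 4.86 ± 0.819 CPM in hyperoxia (adjusted p = 0.0138). Egf, Nrg4, Il34 and Rspo2 did not pass the test.

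**Figure D4:**
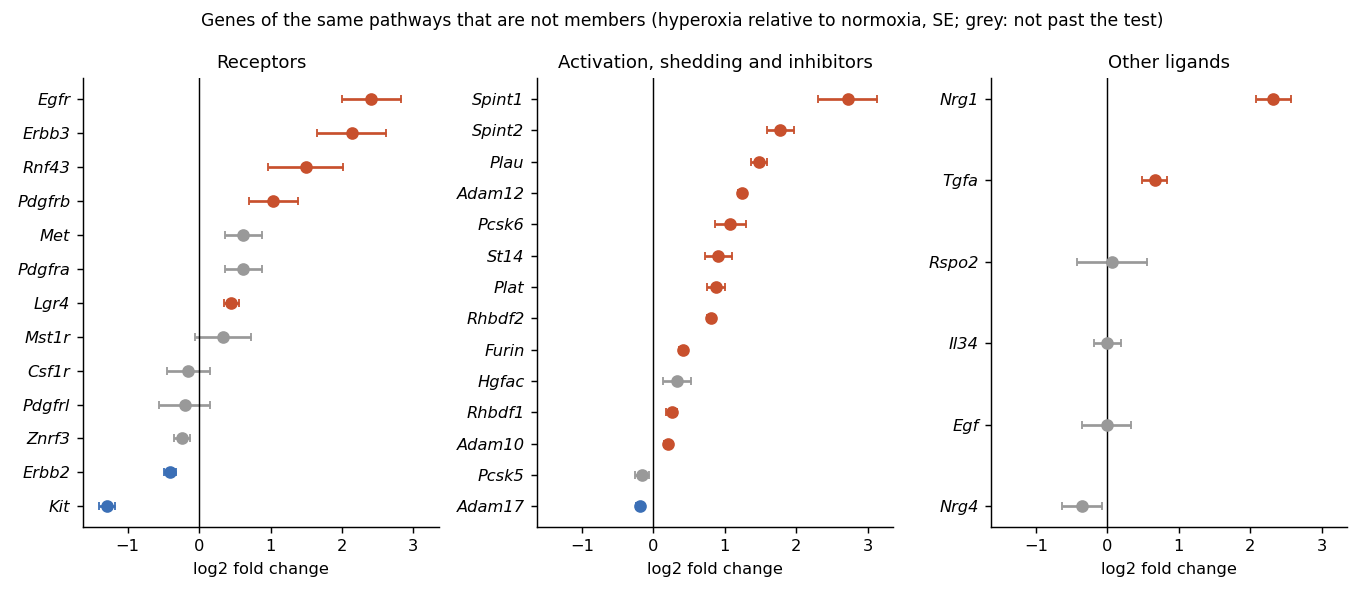
Log2 fold change with SE for the 33 tested pathway genes outside the 10 growth factors, in 3 panels. The panels show receptors, then activation, shedding and inhibitors, then other ligands, with red for genes that rose, blue for genes that fell and grey for genes not past the test. Kit is the lowest receptor at -1.29, Egfr the highest at 2.41, and most genes of the middle panel lie right of 0.

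Markers of cells other than ECs were set beside the growth factor genes by library. Summed alveolar type 1 (AT1) markers were 104 to 128 CPM in normoxia and 228 to 592 CPM in hyperoxia, and all 10 rose, as did all 10 AT2 markers. The defining AT2 gene Sftpc was 106 ± 31.1 CPM in normoxia and 1121 ± 476 CPM in hyperoxia. Of the fibroblast markers 7 of 9 tested rose (153 to 301 against 234 to 557 CPM), and of the mural and myofibroblast markers 7 of 8 rose (47.2 to 83.0 against 103 to 182 CPM). Airway epithelial markers were 62.4 to 83.4 CPM against 82.3 to 114 CPM, with 1 of 4 tested past the test, Krt5 at 0 in all libraries and Scgb1a1 at 0.551 ± 0.279 CPM in normoxia. Macrophage and monocyte markers were 137 to 265 CPM against 143 to 243 CPM, where 1 of 11 rose and 1 fell. Lymphocyte markers were 62.5 to 129 CPM against 68.9 to 106 CPM, where 1 of 9 rose and 1 fell. Neutrophil markers were 10.2 to 40.8 CPM against 16.8 to 89.5 CPM, and platelet and erythroid markers 121 to 207 CPM against 98.3 to 145 CPM, where 1 of 7 rose and 3 fell. Mast cell and basophil markers (0.884 to 2.46 against 4.06 to 9.37 CPM, 2 of 3 tested rose) and mesothelial markers (0.0552 to 0.735 against 0.859 to 2.0 CPM) were scarce. Of the 10 EC markers, 3 rose and 3 fell.

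Hyperoxia 3 was the lowest hyperoxia library for AT2, AT1, fibroblast and mural markers. It was also the lowest for airway epithelial, mesothelial, lymphocyte, mast cell and basophil, and platelet and erythroid markers. Among the growth factor genes it was the lowest for Pdgfa, Areg and Kitl, which were higher in hyperoxia. It was likewise the lowest for Hgf, which was lower in hyperoxia (12.4 CPM against 13.5 to 17.6 CPM). For Pdgfb and Pdgfd it was the highest library, and Hbegf in it (32.7 CPM) was the same to the digits given as in hyperoxia 4. The part of cells other than ECs in the values of Pdgfa, Areg, Kitl and Hgf was not tested. Without hyperoxia 3, 7 of the same 9 growth factor genes passed the test and 3 of them, with Pdgfa added, also passed the fold threshold, where 33.3% of all genes tested in that fit passed the test. Areg was called as well in that fit, which admitted it through its remaining hyperoxia libraries.

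**Figure D5:**
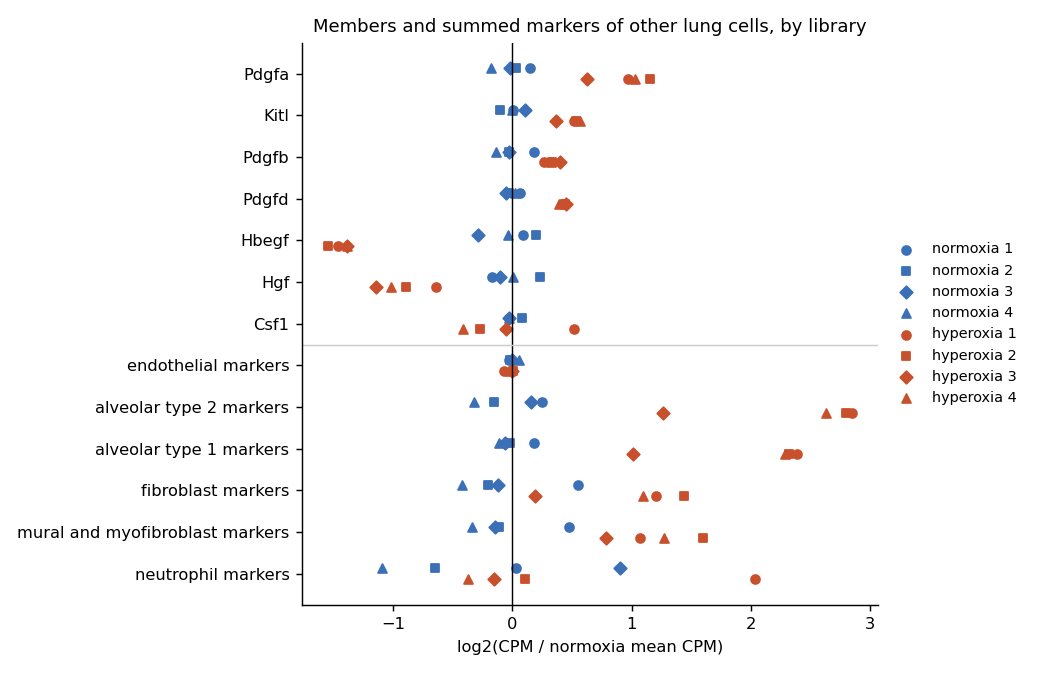
Log2 ratio of CPM in each library to the normoxia mean, for 7 of the growth factor genes above the grey line and for summed markers of 6 cell types below it, with blue for normoxia, red for hyperoxia and the symbol giving the replicate. The hyperoxia 3 diamonds lie left of the other hyperoxia points for Pdgfa, Kitl, Hgf and the AT2, AT1, fibroblast and mural markers. For Pdgfb and Pdgfd they lie right of the other hyperoxia points.

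For each tested growth factor gene, the other protein-coding gene of at least 10 CPM with the most similar log2 CPM over the 8 libraries was found among 9077 candidates. Pearson's r was 0.9975 between Pdgfa and Tnc (tenascin C, a matrix glycoprotein), 0.9885 between Pdgfb and Adrb1 (a beta-adrenergic receptor), 0.9953 between Pdgfd and Npdc1, and 0.9719 between Pdgfc and Fos (a transcription factor subunit). It was 0.996 between Hbegf and Ythdc1 (a reader of methylated RNA), 0.9973 between Kitl and Necap2, 0.9668 between Csf1 and Ciita (the activator of MHC class II genes), 0.9872 between Hgf and Cep57, and 0.942 between Rspo3 and Dusp22. The genes shared the libraries and their depth, and for called genes the 2 conditions alone can produce a high r. Each r is also the highest among 9077 candidates over only 8 libraries, which raises it for called and uncalled genes alike. These values are therefore a description. The sizes of change could differ all the same: mean Tnc was 11.6 CPM in normoxia and 46.5 CPM in hyperoxia, against 8.51 and 16.5 CPM for Pdgfa, and mean Ythdc1 was 142 and 108 CPM, a log2 fold change of -0.39 beside -1.45 for Hbegf.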

How the data were processed

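RNA of lung cells depleted of CD45-positive cells and selected with CD31 beads was sequenced by the study. The authors deposited raw counts per gene and FPKM values for the same 8 libraries. Submitters' processing notes name HISAT2 2.0.5, featureCounts 1.5.0-p3 and build mm10. The annotation version and the use of strand are not given in the sources used here. The deposited FPKM equal counts per kilobase and library total times a constant per library (0.974 to 1.01), and were used for levels between genes only.

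Counts were tested with edgeR 4.0.16 in R 4.3.3 (quasi-likelihood, TMM, filterByExpr with a minimum count of 10, group as the only term). P-values were adjusted over 15564 genes. CPM are counts over TMM-scaled library size. SE follow from the F statistic, and 95% intervals use 6 residual degrees of freedom. The fit was tested on simulated data. DESeq2 1.42.0, limma 3.58.1 (voom and log2 FPKM plus 1 or 0.1), other filters and normalizations, the replicate number as a block and leaving out each library were alternatives.

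Total counts per library were 16098086 to 18300730, and precision is given by the spread between libraries. Replicates were compared pairwise and differed by more than sampling noise, so all 8 were kept. The 10 genes, the pathway lists and the marker lists were chosen with earlier results of these data known. All 10 genes, the receptors and chosen pathway genes are named. Overlaps of exons came from GENCODE M21.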

Additional observations from a re-analysis of the deposited data

Results flagged for a closer look

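In each group of 4 libraries the highest and lowest values of the 10 growth factor genes, the pathway genes and the summed marker lists were checked by Dixon's ratio of the gap to the range. Of 132 groups looked at, 10 stood out, and chance at about 1 in 20 gives 6.6. Csf1 was 62.1 CPM in normoxia 2, with the other normoxia libraries at 57.7 to 57.8 CPM. Among the pathway genes, St14 was 4.87 CPM in hyperoxia 3 where hyperoxia 1, 2 and 4 held 8.54 to 9.19 CPM, and Spint1 was 0.939 CPM in normoxia 4 where normoxia 1 to 3 held 0.336 to 0.429 CPM. Tgfa was 2.38 CPM in normoxia 4 beside 3.25 to 3.36 CPM, and Rspo2 was 0.228 CPM in normoxia 2 beside 0.552 to 0.615 CPM. Nrg3 was 0.114 CPM in hyperoxia 1 and had no count in the remaining hyperoxia libraries. Lgr5, an R-spondin receptor gene below the filter, was at 0.799 CPM in hyperoxia 1, the rest of that group at 0.286 to 0.34 CPM. Lgr6 was 0.228 CPM in normoxia 2 and had no count in the other normoxia libraries. Hyperoxia 3 held 228 CPM of summed AT1 markers, where hyperoxia 1, 2 and 4 held 551 to 592 CPM. Hyperoxia 1 held 89.5 CPM of summed neutrophil markers, where hyperoxia 2 to 4 held 16.8 to 23.4 CPM.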

How the results depend on the processing

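The number of the 10 growth factor genes past the test was 6 to 8 over 17 alternatives (7 as reported, 6 to 8 when a library was left out), and that of all genes was 4436 to 5659. The genes behind the number 7 were not always the same. With DESeq2 and with limma on log2 FPKM, Areg was called and Pdgfc was not. The number past both the test and the fold threshold, 2 as reported, was 1 with limma on log2(FPKM + 1), with or without a filter (1 and 1), and ranged from 1 (without hyperoxia 4) to 4 (without hyperoxia 3) when a library was left out, or 1 to 3 among the 9 genes of the reported fit; a pseudocount of 1 shrinks folds of low genes, and otherwise the cause was not tested. Pdgfa, Pdgfb, Pdgfd, Hbegf, Kitl and Hgf kept their direction and their call under all 17. Pdgfc kept its direction in all 17 and lost its call in 7, with adjusted p up to 0.134. Areg kept its direction and call in the 12 alternatives that tested it (log2 fold change 0.66 to 3.13). Csf1 changed sign without a filter (0.000239) and without normoxia 2, hyperoxia 2, hyperoxia 3 or hyperoxia 4 (0.013, 0.0677, 0.000674 and 0.11), values below its SE, and ranged from -0.24 to 0.11 when a library was left out. Rspo3 changed sign without hyperoxia 4 and ranged from -0.00583 to 0.32. The pathway genes past the test numbered 16 to 24, with 21 as reported. Over 9 alternatives, 18 to 20 of the 20 ranks by FPKM were kept, and 16 were kept with the GENCODE length of Hbegf, an alternative chosen after seeing the data.

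The replicate numbers of the labels are not said to pair pups, and same-numbered libraries did not deviate together (correlations of 0.119, 0.0361, -0.125 and -0.14). With the replicate number as a block, 7 of the growth factor genes, 21 pathway genes and 4792 genes in all passed the test, and 2 growth factor genes also passed the fold threshold. Depth limits Areg, Pdgfc and Rspo3, which had at most 27 counts in any library. Marker transcripts of cells other than ECs were detected in these isolates, and no value here separates the RNA of such cells from that of ECs.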
